A study of Mus musculus with 4 samples.

Results

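The type I interferon-stimulated genes described here are 39 genes of the count table, of 54146 in all, whose identifiers carry the listed symbols in mouse GENCODE M21. The rule names the genes by symbol, uses no measured level and leaves out the GBP and IRG families of GTPases. All 39 members had reads in every library, from 157 reads upward, and all of them entered the test. The RNA came from TAMs (tumor associated macrophages, live CD11b+ F4/80+ cells sorted from the CD45+ fraction) of tumors grown from MCA205, a mouse fibrosarcoma cell line. The tumors were grown under the skin of C57BL/6 females aged 8 to 16 weeks that received 1000000 cells. The 2 control libraries, labelled vehicle, came from mice without the drug, and the 2 propranolol libraries came from mice that drank 0.5 g/L propranolol, a nonselective beta blocker, from the day of inoculation. No gene was altered in either group. The labels do not say whether a library holds 1 mouse or several, so the p-values measure the spread between these libraries, which may be technical. The libraries held 13798249 and 23018142 counted fragments in the controls and 39818103 and 16424081 after propranolol.

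Type I interferons, the interferon alpha family and interferon beta, are secreted by cells that sense foreign or misplaced nucleic acids. They bind the receptor of IFNAR1 and IFNAR2, whose kinases TYK2 and JAK1 activate the factor ISGF3. STAT2 and IRF9 are subunits of ISGF3, which binds the interferon-stimulated response element (ISRE) in the promoters of target genes. The products block virus entry, copying and translation, sense viral RNA or feed back on the pathway, and macrophages in tumors often carry them. Many targets are also induced through interferon gamma, which has a receptor of its own, so that a transcript level does not tell which interferon acted.

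The ISRE itself could be seen in the promoters of members from every class of result. RefSeq promoter windows of the GRCm38.p6 build, from 250 bases before to 50 bases after a start site, were matched for 29 of the 39 members. The core letters GAAANNGAAA were searched on both strands, and overlapping matches were allowed. At least 1 match was found for 16 of the 29 members, or 55.2%, against 3.99% of the 27025 genes with a window. Matches were present in 4 of 7 members that were higher after propranolol, in 2 of 7 that were lower and in 10 of 15 that passed neither call, as defined below. A match is a description of the letters and no evidence of binding in these cells. The 150 bases before the start are shown for Isg15 (chr4:156200819-156200968, minus strand), which rose, and for Ifi211 (chr1:173913047-173913196, minus strand), which was called lower. Both are written along the gene, with the matches in capitals.
Isg15: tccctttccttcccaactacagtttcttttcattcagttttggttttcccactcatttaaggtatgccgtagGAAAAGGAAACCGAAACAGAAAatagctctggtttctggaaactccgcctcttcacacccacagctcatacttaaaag
Ifi211: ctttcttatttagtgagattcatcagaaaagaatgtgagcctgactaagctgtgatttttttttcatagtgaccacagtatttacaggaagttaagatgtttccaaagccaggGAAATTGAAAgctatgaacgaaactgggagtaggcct

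Isg15 held 3 overlapping matches, whose first bases lay at positions -78, -72 and -66 from the start, and Ifi211 held 1 at position -37. The next 6 stretches of 30 bases show the matches of Bst2 (chr8:71537580-71537609, minus strand), Oas1a (chr5:120907523-120907552, minus strand) and Ifitm3 (chr7:141010715-141010744, minus strand), which were higher, of Eif2ak2 (chr17:78882535-78882564, minus strand), which was lower, and of Ifit1 (chr19:34640784-34640813, plus strand) and Rsad2 (chr12:26456553-26456582, minus strand), which were not called. In Ifit1 and Rsad2 the match lay on the opposite strand and therefore reads TTTCNNTTTC.
Bst2: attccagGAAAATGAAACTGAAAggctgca
Oas1a: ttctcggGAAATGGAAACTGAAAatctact
Ifitm3: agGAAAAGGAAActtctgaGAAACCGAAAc
Eif2ak2: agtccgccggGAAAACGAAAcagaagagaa
Ifit1: gTTTCACTTTCcagtctcagTTTCAGTTTC
Rsad2: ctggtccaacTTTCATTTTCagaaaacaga

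The libraries carried the markers of the sorted cell type. All 9 macrophage markers were tested, among them Lyz2, the most abundant per length, at 5889 and 5226 CPM (the count relative to the library size, scaled between libraries with TMM factors) in the controls and 7569 and 5961 CPM after propranolol. Their summed level was 18200 and 17530 CPM in the controls and 22880 and 20770 CPM after propranolol. In 7 of the 9 both propranolol libraries lay above both controls, as in 35.8% of all tested genes. The adjusted p was passed by 5, all of them higher, against 21.8% of all tested genes higher at that limit. Of these Csf1r, the receptor for the macrophage growth factor CSF1, was called higher, at 0.59, but not after GC correction (0.32) or without propranolol replicate 2 (0.55). Leaving out 1 library at a time gave 1 to 3 macrophage markers called higher. The part of this shift in the results below was not tested. Markers of other cells were also present, and several moved with treatment. Of all tested genes 12.2% were called higher and 15.6% lower, or 7.64% and 4.97% after GC correction. The counts of called markers here and in the next paragraph are read against these shares. The summed level of 6 T cell markers was 186 and 219.5 CPM in the controls and 96.8 and 55.3 CPM after propranolol, and 5 of the 6 were called lower. The 5 NK cell markers summed to 65.5 and 59.3 CPM against 16.2 and 6.88 CPM, and all 5 were called lower (4 after GC correction). The 6 neutrophil markers summed to 145 and 177 CPM against 303 and 321 CPM, and 4 of the 5 tested were higher. Fewer cells of a type and less RNA per cell cannot be told apart in such bulk samples.

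Control replicate 1 stood apart in its fibroblast or sarcoma cell markers, with a sum of 2769 CPM against 1035 CPM in control replicate 2 and 615 and 672 CPM after propranolol. The most abundant of these 6 markers per length was Col1a1, and 5 of the 6 were called lower, but 3 without control replicate 1. The calls among the interferon-stimulated genes without that library are given beside the counts. The conventional dendritic cell markers summed to 32.8 and 32.1 CPM in the controls and to 20.2 and 17.8 CPM after propranolol, with Ccr7 the most abundant per length, and 3 of 6 were lower (2 without control replicate 1 or without propranolol replicate 2, and 1 after GC correction). The monocyte markers summed to 628 and 536 CPM against 576 and 478 CPM. Of those 5, Chil3 and Plac8 were higher, at log2 fold changes of 1.28 and 0.79, the second just under 1.5-fold without propranolol replicate 1 (0.58). Ccr2, also among them, was at 454 and 397 CPM against 306 and 262 CPM, a log2 fold change of -0.58 that passed the adjusted p just under 1.5-fold. Ccr2 was called lower without control replicate 2 and without propranolol replicate 1, and was at 0.36, not called, after GC correction. Of the 5 endothelial cell markers 1 was higher, a call that was lost after GC correction and without control replicate 2 or propranolol replicate 1. The B cell marker that was tested, Ms4a1, was at or under 1.01 CPM in every library, and was called lower, but not after GC correction or without any 1 library. The part of these cells in the results was not tested. Plasmacytoid dendritic cells, a main source of interferon alpha, were hardly seen, since their 6 markers, of which 4 were tested, summed to 3.71 and 4.78 CPM against 4.29 and 5.04 CPM. Siglech, a defining marker of these cells, had between 0.202 and 0.72 CPM. Bst2 is known as a marker of those cells too and is described below as a member.

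Within the TAMs, the interferon-stimulated genes spanned a 218-fold range of levels. Levels between genes were compared per length, as TPM, in which counts are divided by the exon length and each library has the same total. Ifitm3 had the highest level over the 4 libraries, 2243 TPM, followed by Bst2 with 1583 TPM. Isg15 followed with 384 TPM, Irf7 with 308 TPM and Oas1a with 147 TPM. The lowest levels were those of Ifi44, 10.3 TPM, Herc6, 10.7 TPM, Ifi205, 11.0 TPM, and Mx2, 11.3 TPM, and these neighbours overlapped between libraries.

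**Figure D1:**
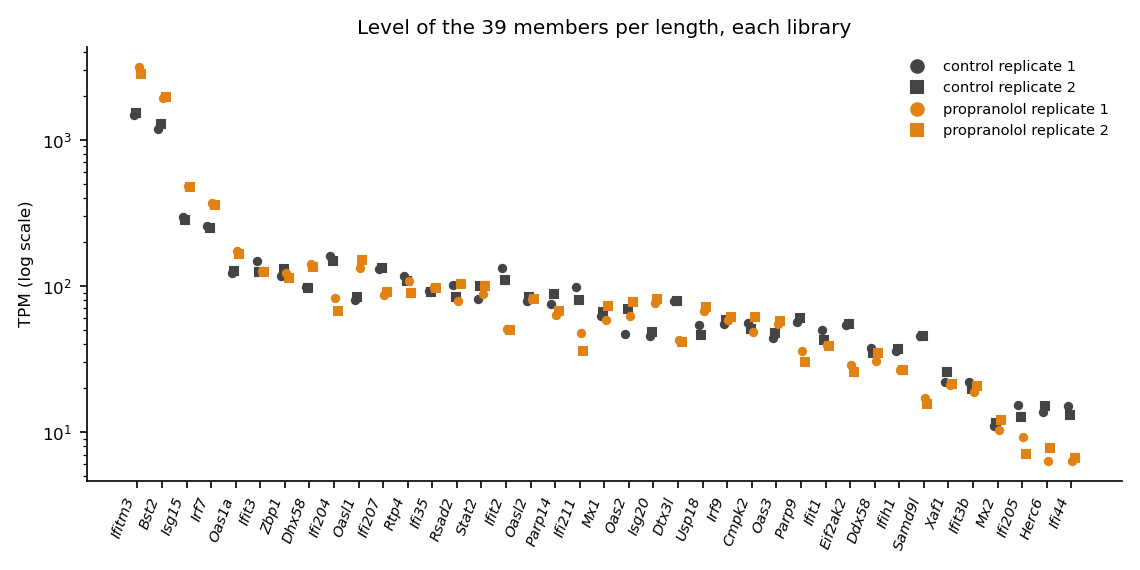
Level of each of the 39 members in TPM (log axis) in the 2 control and the 2 propranolol libraries, ordered by the mean over the 4 libraries; each point is 1 library. Ifitm3 and Bst2 stand above the others, and Ifi44 has the lowest mean, 10.3 TPM.

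The comparison of the groups asked how the RNA of TAMs changed with propranolol. The interferon-stimulated genes moved in both directions. Of the 39 members, 9 were higher and 9 were lower, and 21 passed neither call. A gene was called when the edgeR quasi-likelihood test gave an adjusted p under 0.05 and the change exceeded 1.5-fold. Higher were Ifitm3, Oasl1, Isg20, Isg15, Bst2, Irf7, Dhx58, Usp18 and Oas1a. Lower were Samd9l, Ifit2, Ifi44, Ifi211, Ifi204, Herc6, Eif2ak2, Dtx3l and Parp9. The calls of the falls did not hold once the GC content of the transcripts was taken into account. In a fit corrected for GC content, in which each library's curve of level against GC content was flattened first, 9 members were higher and 0 were lower, with 4 lower at an unadjusted p under 0.05. In that fit 3 of the 9 falls (Dtx3l, Parp9 and Ifit2) and all 9 rises still passed the adjusted p in the same direction, some of them under 1.5-fold. DESeq2 and limma-voom were not run with that correction.

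Over all 14688 tested genes, 27.8% were called, 12.2% higher and 15.6% lower, so that the share of members called higher, 23.1%, and the share called lower, 23.1%, were read against these. Both propranolol libraries lay above both controls for 20 members, against 35.8% of all tested genes, and below both for 12 members, against 36.9%. The edgeR adjusted p was under 0.05, whatever the size of the change, for 13 members that were higher and 10 that were lower, against 21.8% and 20.4% of all tested genes. With the GC correction, 7.64% of the tested genes were higher and 4.97% lower, and the adjusted p alone was passed by 18 members that were higher and 3 that were lower, against 17.5% and 6.53% of the tested genes. The median log2 fold change of the members was 0.17, and that of all tested genes was -0.02. After GC correction these medians were 0.29 and 0.09. Summed over the 39 members, the level was 3929 and 3884 CPM in the controls and 5034 and 4851 CPM after propranolol, of which Ifitm3 and Bst2 alone made up 636 and 647 CPM and 1403 and 1277 CPM. Without control replicate 1, 9 members were higher and 8 lower, the call lost being that of Parp9, and the median was 0.28.

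**Figure D2:**
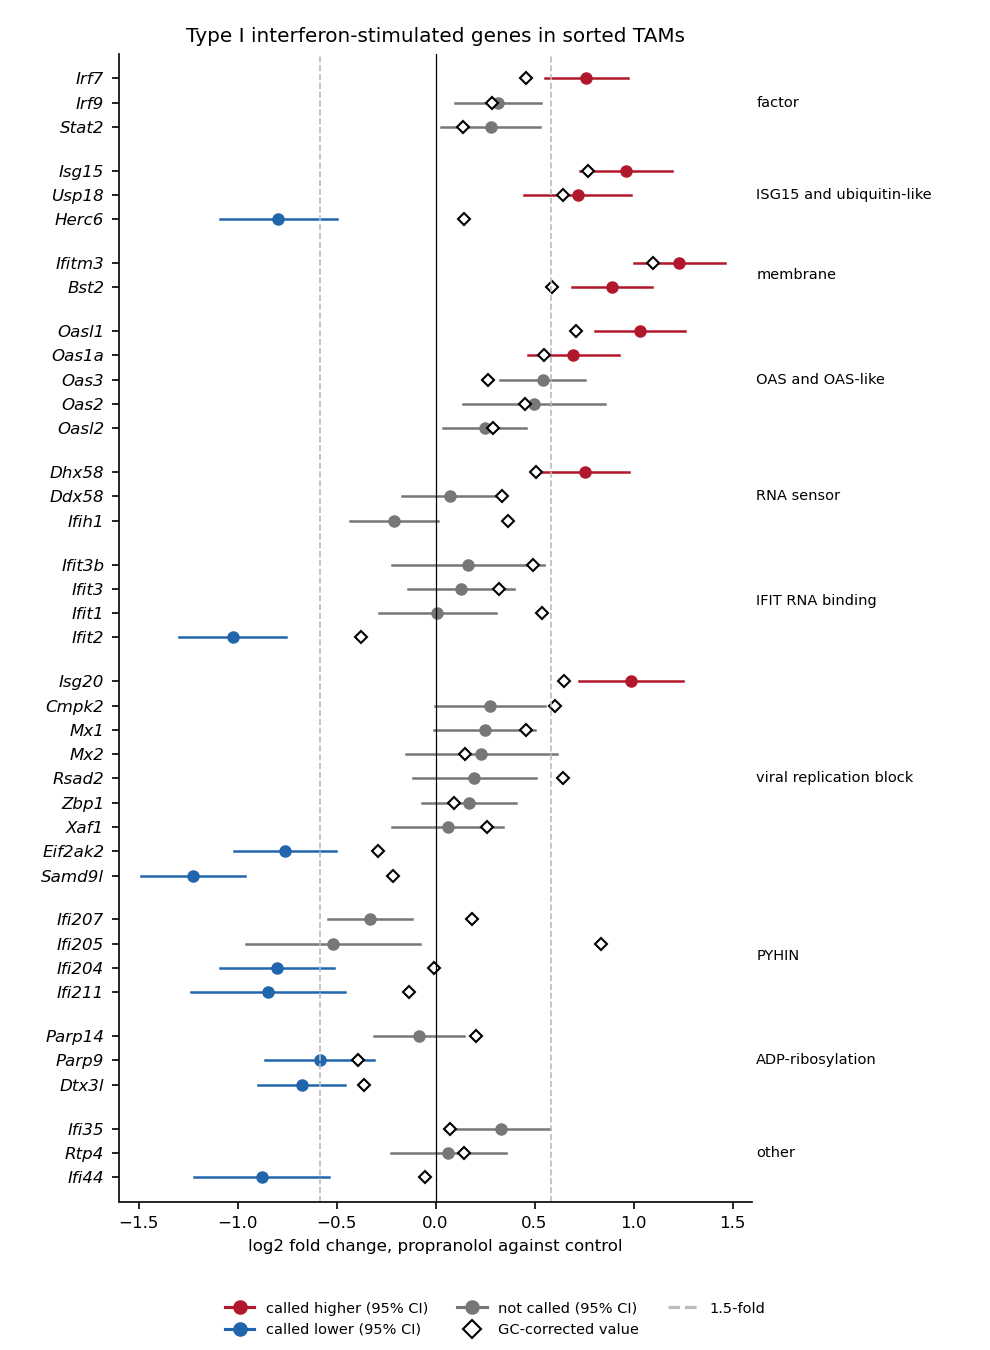
Log2 fold change of the 39 members, grouped by role, with 95% confidence intervals (edgeR, 2 libraries per group), and the value after GC correction as open diamonds; dashed lines mark 1.5-fold. The 9 members called lower, from Samd9l at -1.23 to Parp9 at -0.59, all have diamonds closer to 0 or above it.

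Ifitm3 and Bst2 act at membranes. IFITM3 stops the fusion of viruses with endosomes, and BST2 (tetherin) holds budding particles at the cell surface. Ifitm3 (ENSMUSG00000025492.6, chr7:141009586-141010770, mm10) was at 307 and 306 CPM in the controls and at 775 and 664 CPM after propranolol. This was 2.35-fold higher, with a log2 fold change of 1.23 (SE 0.10, edgeR adjusted p = 0.00010), the largest rise among the members. Bst2 was at 328 and 341 CPM in the controls and at 627 and 613 CPM after propranolol, a log2 fold change of 0.89 (SE 0.09, edgeR adjusted p = 0.00013). Neither gene overlapped between the groups, and both were still called after GC correction, at 1.10 and 0.59.

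Isg15 encodes a ubiquitin-like protein that is attached to other proteins or secreted. USP18 takes it off again and blocks signaling at IFNAR2, and HERC6 is the main mouse ligase that attaches it. Isg15 was at 68.8 and 63.1 CPM in the controls and at 133 and 124 CPM after propranolol, a log2 fold change of 0.96 (SE 0.10, edgeR adjusted p = 0.00017). Usp18 was at 45.7 and 38.3 CPM against 68.1 and 69.7 CPM, a log2 fold change of 0.72 (SE 0.12, edgeR adjusted p = 0.0013). Herc6 went the other way, from 38.9 and 41.4 CPM to 21.5 and 25.1 CPM, with a log2 fold change of -0.79 (SE 0.13, edgeR adjusted p = 0.0012). The groups did not overlap in any of the 3 genes. After GC correction Isg15 and Usp18 were still called, at 0.77 and 0.64, whereas Herc6 lost its call and changed sign, to 0.14. Part of the exons of Herc6, 13.7% of their length, is shared with a neighbouring transcript, so its count is less certain.

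**Figure D3:**
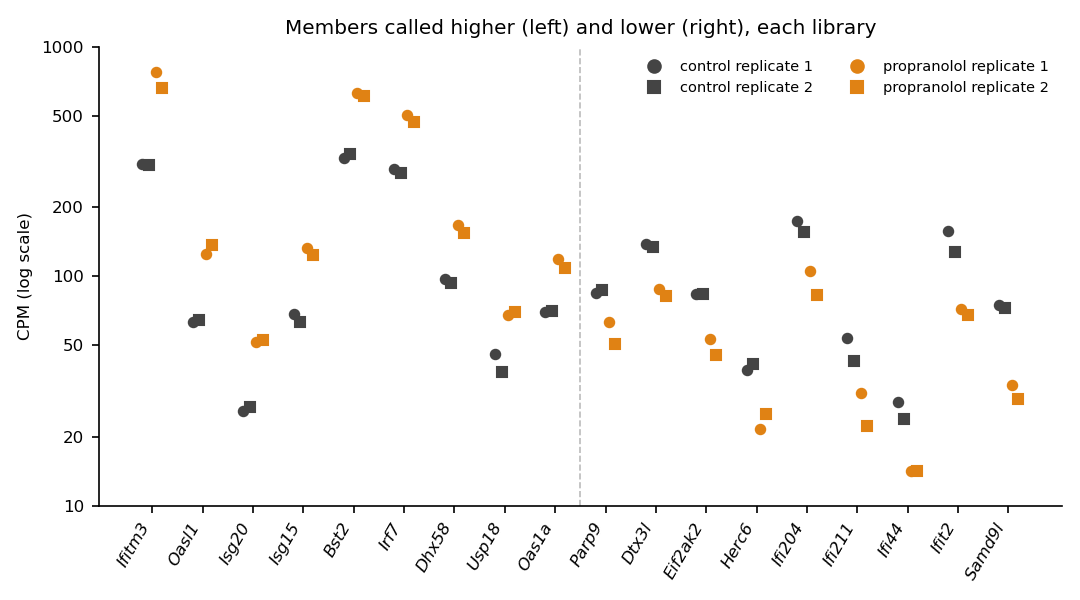
CPM (log axis) of the 18 called members in each of the 4 libraries, with the 9 called higher to the left of the dashed line and the 9 called lower to the right. The propranolol libraries lie above both controls on the left, as in Ifitm3, and below both on the right, as in Samd9l.

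The OAS enzymes make short oligoadenylates that switch on the RNA-degrading enzyme RNase L, and OASL1 is a relative known to limit the translation of Irf7 mRNA. All 5 members of this group had both propranolol libraries above both controls, as had 35.8% of all tested genes, and 2 of them were called higher (against 12.2%). Oasl1 was at 63.3 and 64.6 CPM in the controls and at 126 and 136 CPM after propranolol, a log2 fold change of 1.03 (SE 0.10, edgeR adjusted p = 0.00013). Oas1a was at 70.1 and 70.5 CPM against 119 and 109 CPM, a log2 fold change of 0.70 (SE 0.10, edgeR adjusted p = 0.00065). Oas3 had a log2 fold change of 0.54 and Oas2 one of 0.50, and both passed the adjusted p but were under 1.5-fold. The value of Oasl2 was 0.25, with an edgeR adjusted p of 0.060. Without control replicate 2, Oas3 (0.59) and Oas2 (0.80) were also called, and Oas2 also without propranolol replicate 1 (0.63). After GC correction, Oasl1 was called, at 0.71, and Oas1a was not, at 0.55. The Oas1 genes are close copies and lie next to each other on chromosome 5. Reads that fit several of them may have been dropped, since only alignments of mapping quality over 30 were kept. Oas1g, a close copy of Oas1a and not a member, was higher as well, from 26.4 and 25.4 CPM to 48.1 and 46.6 CPM, a log2 fold change of 0.87 (SE 0.12, edgeR adjusted p = 0.00045).

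The 3 members that are transcription factors of the pathway were Irf7, the factor that drives the interferon alpha genes, and Stat2 and Irf9, subunits of ISGF3. Irf7 was at 295 and 281 CPM in the controls and at 504 and 471 CPM after propranolol, a log2 fold change of 0.76 (SE 0.09, edgeR adjusted p = 0.00028). The libraries of the groups did not overlap. Its GC-corrected value was 0.46, under the 1.5-fold limit. Irf9 had a log2 fold change of 0.32 and passed the adjusted p (0.025, edgeR) without reaching 1.5-fold, and Stat2 had one of 0.28 (edgeR adjusted p = 0.069).

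Of the 3 cytosolic RNA sensors, Dhx58 (LGP2, the regulator of the other pair) rose. It was at 97.5 and 93.6 CPM in the controls and at 168 and 154 CPM after propranolol, a log2 fold change of 0.75 (SE 0.10, edgeR adjusted p = 0.00040). Ddx58, which encodes RIG-I, was at 81.5 and 73.0 CPM against 77.7 and 84.9 CPM and overlapped between the groups, with a log2 fold change of 0.07 (95% interval -0.17 to 0.32). Ifih1, which encodes MDA5, had a value of -0.21 (edgeR adjusted p = 0.12). The GC-corrected values were 0.51 for Dhx58, which was then no longer called, 0.34 for Ddx58 and 0.36 for Ifih1.

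The IFIT proteins bind viral RNA and hold it back from translation. The 4 members lie in a cluster on chromosome 19, between the start of Ifit2 at 34550694 and the end of Ifit1 at 34650009, with Ifit1bl1 and Ifit1bl2, which are not members, among them. Ifit2 was at 158 and 127 CPM in the controls and at 71.6 and 68.0 CPM after propranolol, so it was 2.03-fold lower, with a log2 fold change of -1.03 (SE 0.12, edgeR adjusted p = 0.00024). The members Ifit1, Ifit3 and Ifit3b had values of 0.01, 0.13 and 0.16 and were not called. Ifit1bl1 was at -0.20 and Ifit1bl2, at no more than 1.79 CPM in any library, at 1.23, and neither was called, though Ifit1bl2 was called higher after GC correction. The difference between Ifit2 and the other genes of the cluster was not tested. After GC correction Ifit2 was at -0.38 and passed the adjusted p without reaching 1.5-fold, and Ifit1, Ifit3 and Ifit3b were at 0.54, 0.32 and 0.49. Ifit3 and Ifit3b are near-identical copies whose reads may not be told apart.

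Among the 9 members that act on viral replication or on infected cells, 1 was higher and 2 were lower (against 12.2% and 15.6% of all tested genes). Isg20, an exonuclease that degrades RNA, was at 25.8 and 26.9 CPM in the controls and at 51.8 and 52.7 CPM after propranolol, a log2 fold change of 0.99 (SE 0.12, edgeR adjusted p = 0.00024). Samd9l, a brake on translation and cell growth, had the largest fall of all members (ENSMUSG00000047735.14, chr6:3372257-3399572, mm10). It was at 75.0 and 72.8 CPM in the controls and at 33.7 and 29.3 CPM after propranolol, 2.34-fold lower, with a log2 fold change of -1.23 (SE 0.12, 95% interval -1.49 to -0.96, edgeR adjusted p = 0.00012). Neither gene overlapped between the groups. Eif2ak2 encodes PKR, the kinase that halts translation on sensing double-stranded RNA. It was at 84.1 and 83.8 CPM against 53.2 and 45.5 CPM, a log2 fold change of -0.76 (SE 0.12, edgeR adjusted p = 0.00073). After GC correction Isg20 was called, at 0.65, but Samd9l and Eif2ak2 were not, at -0.21 and -0.29.

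The other 6 of these 9 members were not called. Their log2 fold changes ran from 0.06 for Xaf1 to 0.28 for Cmpk2, with Zbp1, Rsad2, Mx2 and Mx1 between them. Rsad2 encodes viperin, which makes a chain-terminating nucleotide from the product of CMPK2, its genomic neighbour. Rsad2 was at 135 and 109 CPM in the controls and at 124 and 156 CPM after propranolol, so the groups overlapped. With GC correction Rsad2 (0.64) and Cmpk2 (0.60) were both called higher. Mx1, whose allele in C57BL/6 mice is known to give no working protein, had a log2 fold change of 0.25 (edgeR adjusted p = 0.11).

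The PYHIN genes encode proteins of the nucleus and cytosol that bind DNA, and form a cluster of related genes on chromosome 1. Where stretches are alike, reads that fit several of them may have been dropped by the same limit on mapping quality. All 4 members had both propranolol libraries below both controls, as had 36.9% of all tested genes. Ifi204 was at 175 and 155 CPM in the controls and at 106 and 83.0 CPM after propranolol, a log2 fold change of -0.80 (SE 0.13, edgeR adjusted p = 0.0010). Ifi211 was at 53.9 and 42.7 CPM against 30.8 and 22.2 CPM, a log2 fold change of -0.85 (SE 0.17, edgeR adjusted p = 0.0035). Ifi207 had a value of -0.33 and passed the adjusted p without reaching 1.5-fold, and Ifi205 was at -0.52 (edgeR adjusted p = 0.057). Ifi205 was called lower without control replicate 2 (-0.65) and without propranolol replicate 1 (-0.77). After GC correction Ifi204 and Ifi211 were at -0.01 and -0.13, Ifi207 was at 0.18, and Ifi205, with the lowest GC content of all members, 36.1%, turned to 0.84 and was called higher.

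The 7 further PYHIN genes that were tested also had log2 fold changes below 0, whereas 49% of all tested genes lay above 0. Aim2 was left out and is given with the sensors. Of the 7 genes, 3 were called lower. Mndal was at 82.1 and 72.2 CPM against 30.5 and 22.8 CPM, a log2 fold change of -1.52 (SE 0.15, edgeR adjusted p = 0.00013). The values of Ifi203 and Ifi209 were -1.15 and -0.89, and -0.09 and 0.053 after GC correction. Mndal was then at -0.56, and passed the adjusted p without reaching 1.5-fold. Over these 11 PYHIN genes, again without Aim2, the median was -0.80. By edgeR 5 were lower and 0 higher, against 15.6% and 12.2% of all tested genes. At an unadjusted p under 0.05 the count of higher genes was 0 as well, as was that called by DESeq2 and by limma-voom. After GC correction the median was 0.10, with 0 lower and 1 higher, against 4.97% and 7.64% of all tested genes.

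Dtx3l and Parp9 encode a ubiquitin ligase and its ADP-ribosyltransferase partner, which work as a pair, and PARP14 is a larger enzyme of the same kind. Dtx3l was at 138 and 134 CPM in the controls and at 87.9 and 82.1 CPM after propranolol, a log2 fold change of -0.68 (SE 0.10, edgeR adjusted p = 0.00064). Parp9 was at 84.3 and 87.3 CPM against 63.0 and 50.9 CPM, a log2 fold change of -0.59 (SE 0.12, edgeR adjusted p = 0.0040), just past the 1.5-fold limit. Parp9 was under that limit without control replicate 1 (-0.55), control replicate 2 (-0.55) or propranolol replicate 2 (-0.41). The genes lie head to head on opposite strands and share 458 exon bases, so that some reads cannot be assigned without strand. Parp14 was at -0.09 (95% interval -0.31 to 0.14). After GC correction Dtx3l and Parp9 were at -0.36 and -0.39, and passed the adjusted p without reaching 1.5-fold.

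The last 3 members have other roles. Ifi44, whose product is known mainly as an interferon-induced protein, was at 28.3 and 23.8 CPM in the controls and at 14.1 and 14.2 CPM after propranolol, a log2 fold change of -0.88 (SE 0.15, edgeR adjusted p = 0.0015), and at -0.05 after GC correction. Ifi35 had a log2 fold change of 0.33 and passed the adjusted p (0.035, edgeR) without reaching 1.5-fold, and 16.8% of its exon length overlaps an antisense transcript. Rtp4, a chaperone of membrane receptors, was at 0.06.

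The members that rose and those that fell also differed in base composition. The 9 members called higher had a GC content of 50.9% to 57.4%, and the 9 called lower one of 38.8% to 47.5%, without overlap. Across the 39 members the rank correlation of the log2 fold change with GC content was 0.89 (Spearman, a description across genes that share the same 4 libraries), and 0.58 across all tested genes with a GC content. All 5152 tested genes within the GC range of the members that fell had a median of -0.45, and the 4652 within the range of those that rose had one of 0.35. After the correction the correlation with GC content over the members was 0.39. With exon length, the rank correlation of the uncorrected log2 fold change over the members was -0.457, and the part of length was not tested. Of the 9 members called higher, 6 were still called (Ifitm3, Isg15, Oasl1, Isg20, Usp18 and Bst2), with Cmpk2, Rsad2 and Ifi205 in addition, whereas none of the 9 falls was past both limits. Whether the trend with GC content arose in the cells or in the libraries was not tested.

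**Figure D4:**
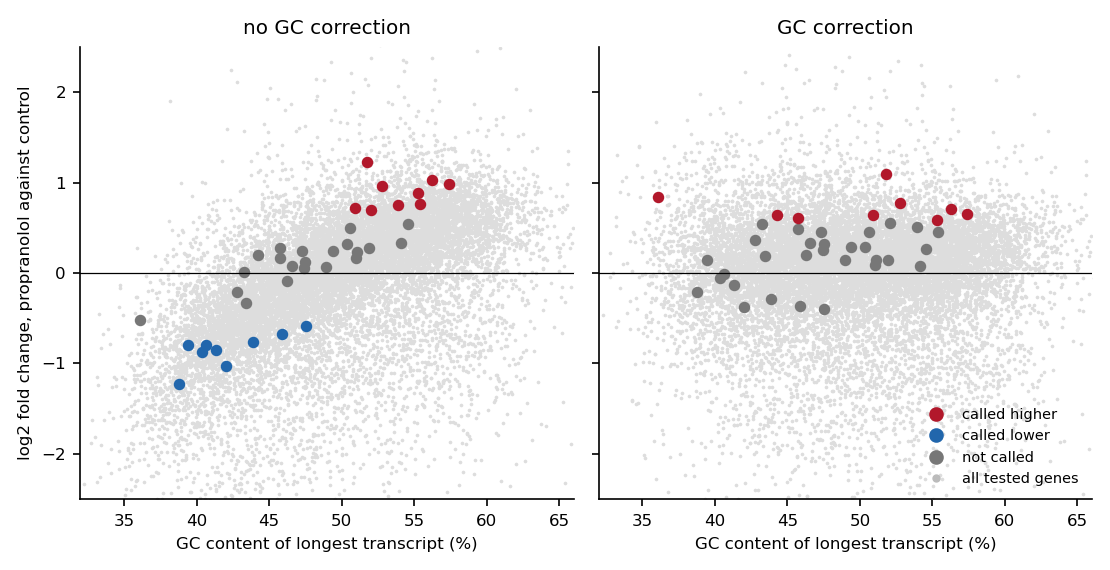
Log2 fold change against the GC content of the longest transcript, before (left) and after (right) GC correction; grey points are all tested genes, some of which lie outside the plotted range, and large points are the 39 members coloured by their call in that fit. The members follow the slope of the grey cloud on the left, and on the right 9 are called higher and 0 lower.

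The genes that start the pathway ran in both directions as a list, though some groups of them ran mostly in 1. Of 68 genes listed as ligands, receptors, kinases, factors, sensors, adaptors and inhibitors, 48 were tested, 2 were called higher and 7 lower (12.2% and 15.6% of all tested genes). The median was 0.06. Without control replicate 2, 5 were higher, and without propranolol replicate 2, 4 were higher and 4 lower. Of the 11 adaptors and kinases of sensing, 9 had both propranolol libraries above both controls, against 35.8% of all tested genes. Of these 11, 1 was called higher, and 0 after GC correction. The 5 IRF genes of the list were all higher in value, against 49% of all tested genes, and 0 were called. Of the 8 sensors, 7 had both propranolol libraries below both controls, against 36.9% of all tested genes. Of 18 type I interferon genes 14 had 0 reads in all libraries, and Ifnb1 was the 1 tested. Ifnb1 was at 0.202 and 0.438 CPM in the controls and at 0.715 and 0.72 CPM after propranolol. Its log2 fold change was 1.08 (95% interval -0.45 to 2.60, edgeR adjusted p = 0.23), so a difference was not detected.

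The receptor genes Ifnar1 and Ifnar2 had log2 fold changes of 0.06 and 0.36, and only the second passed the adjusted p (0.013, edgeR), under 1.5-fold. Jak1 was at -0.08 and Tyk2 at 0.58, and neither was called. Among the factors that turn on interferon genes, Irf3 was at 0.58 and Irf1 at 0.26. Tyk2 and Irf3 lay just under the 1.5-fold limit, and both were called higher without control replicate 2 (0.69 and 0.73) and without propranolol replicate 1 (0.69 and 0.63). After GC correction they were at 0.24 and 0.25. Ikbke, a kinase that activates the IRF factors, was called at 0.60 (SE 0.17, edgeR adjusted p = 0.016), and Rnaseh2c, a subunit of the enzyme that clears RNA from DNA, at 1.06 (SE 0.12, edgeR adjusted p = 0.00018). After GC correction Rnaseh2c was called, at 0.73, and Ikbke was not, at 0.58. Ikbke, named after its value was seen, was also not called without control replicate 1 (0.39) or propranolol replicate 1 (0.56), and was at 0.96 without control replicate 2.

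Of the 8 sensors 5 were lower (against 15.6% of all tested genes), and their median GC content was 41.9%. Tlr3, which detects double-stranded RNA in endosomes, was at 29.4 and 30.5 CPM in the controls and at 10.9 and 9.23 CPM after propranolol, a log2 fold change of -1.56 (SE 0.15, edgeR adjusted p = 0.00013). Tlr7, which detects single-stranded RNA, had a value of -1.26 (SE 0.14, edgeR adjusted p = 0.00020). Aim2, Tlr8 and Tlr4 were at -0.82, -0.68 and -0.67. Tlr3 was the only one of the 5 still called lower after GC correction, at -0.70, where Tlr8 and Tlr4 changed sign (0.17 and 0.27). Jak2, a kinase of the interferon gamma receptor, was at -0.69 and at -0.26 after GC correction. Without propranolol replicate 2 Jak2 (-0.55), Tlr8 (-0.53) and Tlr4 (-0.55) were not called, nor were Tlr8 (-0.55) and Tlr4 (-0.57) without control replicate 1.

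Ifng, the interferon gamma gene of T and NK cells, had the largest fall among these genes. It was at 8.83 and 7.97 CPM in the controls and at 2.67 and 1.05 CPM after propranolol, a log2 fold change of -2.09 (SE 0.38, edgeR adjusted p = 0.0019), and was still called after GC correction, at -1.59. The T and NK cell markers given above were lower in the same libraries, and their part in this result was not tested.

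**Figure D5:**
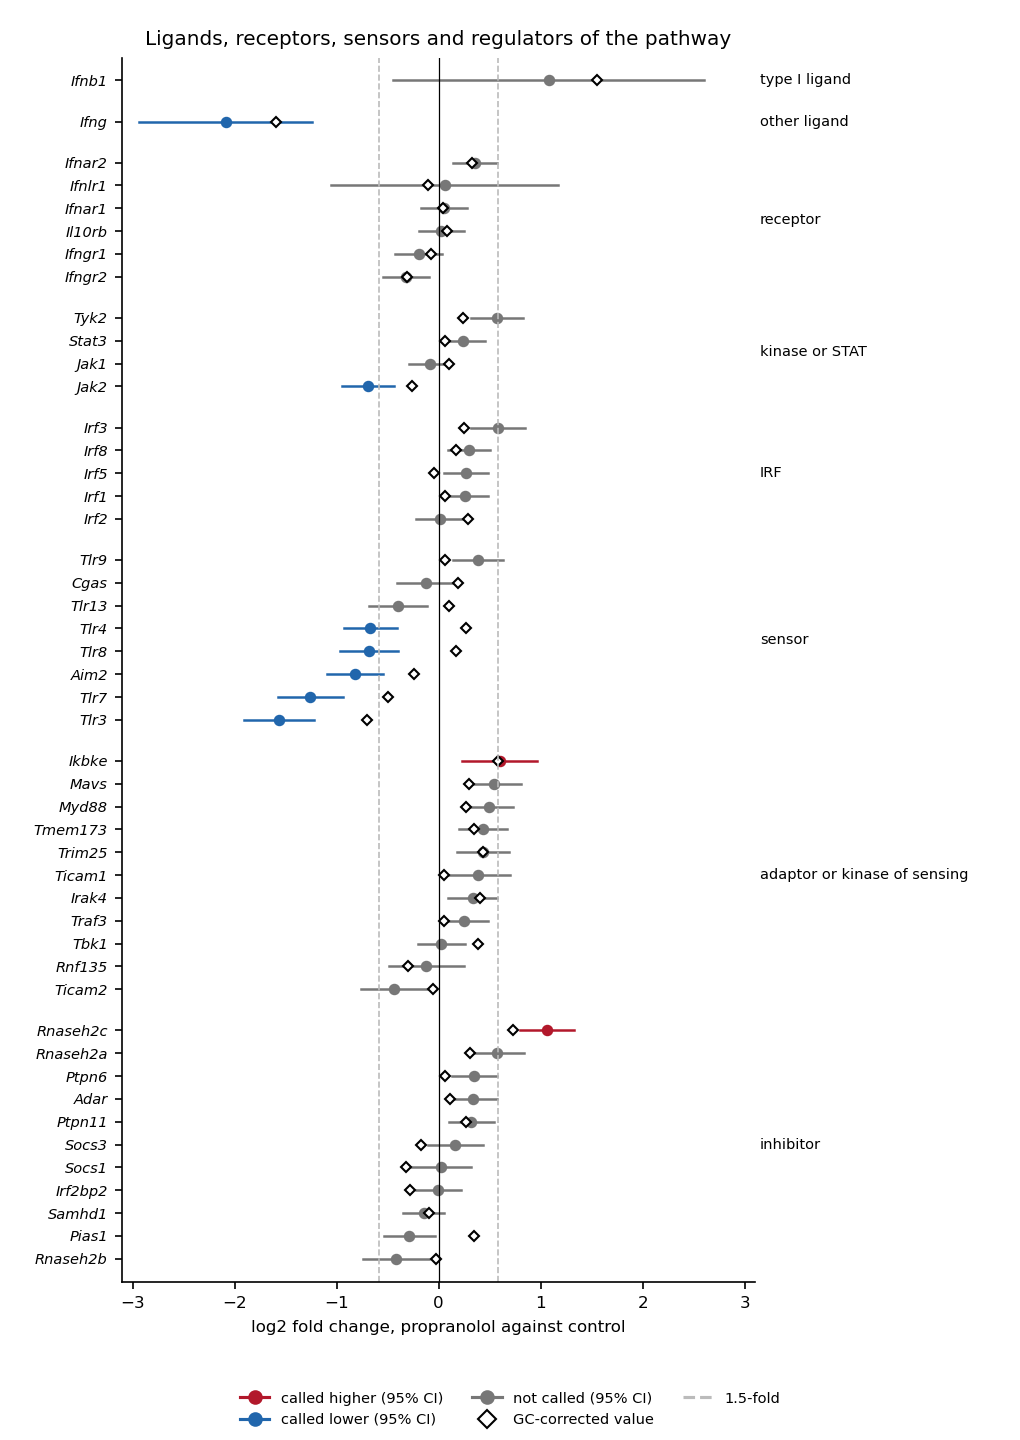
Log2 fold change of tested genes that act before the interferon-stimulated genes, all but 1 of them shown, grouped by role, with 95% confidence intervals (edgeR, 2 libraries per group), and GC-corrected values as open diamonds; dashed lines mark 1.5-fold. Ifng at -2.09 and the sensor Tlr3 at -1.56 lie furthest to the left, and Rnaseh2c at 1.06 is the highest of the called genes.

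Interferon-induced genes outside the 39 were also split in direction. Of 83 tested, 13 were higher (15.7%, against 12.2% of all tested genes) and 17 lower (20.5%, against 15.6%), with a median of -0.03. After GC correction 10 were higher and 1 lower, against 7.64% and 4.97% of all tested genes. The largest rises were those of Slfn4 and Ifitm1. Slfn4, a schlafen of myeloid cells, was at 94.5 and 96.9 CPM in the controls and at 216 and 236 CPM after propranolol, a log2 fold change of 1.24 (SE 0.10, edgeR adjusted p = 0.00010). Ifitm1 was at 32.6 and 40.3 CPM against 86.1 and 86.2 CPM, a log2 fold change of 1.24 (SE 0.13, edgeR adjusted p = 0.00014). Ifitm6 (1.14) and Ifitm2 (0.78), 2 further neighbours of Ifitm3, rose as well, and Ifitm2 was not called after GC correction (0.51). The IFITM genes are close copies, which leaves their separate counts uncertain.

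The largest falls among the called genes of that list were those of Mndal, Tnfsf10 (-1.43), Ifi203 and Gvin1 (-1.12), followed by Ms4a4c (-1.09). Tnfsf10 encodes the death ligand TRAIL, and was the 1 gene of the list still called lower after GC correction, at -0.87. Gvin1, a large interferon-induced GTPase, was not called without control replicate 1 (-0.91) or propranolol replicate 2 (-0.94).

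The GBP and IRG GTPases, which are known as strong targets of interferon gamma, lay mostly on the lower side. Of 20 tested, 10 were lower (against 15.6% of all tested genes) and 0 higher (against 12.2%) by edgeR, with a median of -0.71. At an unadjusted p under 0.05 the count of higher genes was 0 too, as was that called by DESeq2 and by limma-voom. Their most abundant gene per length was Gbp2, and their summed level was 1627 and 1641 CPM in the controls and 1101 and 924 CPM after propranolol. After GC correction 5 were still lower, against 4.97% of all tested genes, and the median was -0.26. These 5, named after their values were seen, were Gbp2b, Gm4951, Iigp1, F830016B08Rik and Gbp5.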

How the data were processed

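RNA sequencing of sorted TAMs was analyzed in 4 libraries, 2 per group, grouped by the labels. The authors deposited raw counts of fragments per gene, without normalization. They aligned reads to mm10 with STAR 2.7.1a, kept alignments of mapping quality over 30 with SAMtools 1.9 and counted with featureCounts 1.6.4, versions being those of the submitters' processing notes. Options for paired reads and exons are stated for the counting and none for strand, and the release of the GENCODE annotation is not given in the sources used here. Of the value columns, 0 were left out.

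Identifiers were matched to GENCODE M21 (54079 genes). Counts were tested with edgeR 4.0.16 (quasi-likelihood, TMM factors 1.08, 1.09, 0.914 and 0.931, filterByExpr with a minimum count of 10) in R 4.3.3, with Benjamini-Hochberg adjustment over 14688 genes. Standard errors came from the F statistic. DESeq2 1.42.0 and limma 3.58.1 (voom) were alternatives. In the GC correction, offsets took out each library's natural spline (5 degrees of freedom) on GC content. The fits were tested on simulated data. CPM used TMM-scaled library sizes and TPM the summed exon length.

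The members and lists were chosen with earlier results of these data known. Named were all called members, the 5 of highest level, their paralogues, and of other lists fixed genes and the called genes of largest change. Depth limits the precision of low genes such as Ifnb1. The values of 1 upstream gene are not reported here.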

Additional observations from a re-analysis of the deposited data

How the results depend on the processing

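The count of all genes called, 4084, was 1093 with glmTreat, edgeR's test against 1.5-fold, 6204 with no fold threshold, 728 with a log2 fold change over 1.5, 1851 with GC correction and 2120 with GC correction and replicate block. The members called higher, 9, were 5 with glmTreat and 0 with a log2 fold change over 1.5, and the members called lower, 9, were 2 and 0, and 0 with GC correction, with or without the block. The upstream pathway genes called higher, 2, were 1 with glmTreat, with upper-quartile factors, with a stricter low-count filter and with GC correction, 6 with no low-count filter, 17 with no fold threshold and 0 over a log2 fold change of 1.5. Those called lower, 7, were 3 with glmTreat, 2 with GC correction, with or without the block, and over a log2 fold change of 1.5, and 12 with no fold threshold. The other interferon-induced genes called higher, 13, were 3 with glmTreat, 28 with no fold threshold and 0 over a log2 fold change of 1.5, and those called lower, 17, were 4 with glmTreat and 1 over a log2 fold change of 1.5 and with GC correction, with or without the block. The median log2 fold change of the members, 0.169, was 0.109 with upper-quartile factors, 0.242 with no low-count filter and 0.292 with GC correction, with or without the block.

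Leaving out 1 library at a time gave 9 to 11 members higher, 8 to 10 lower and a median of 0.164 to 0.278. It gave 2 to 5 upstream genes higher and 4 to 8 lower, and 12 to 14 other interferon-induced genes higher and 12 to 21 lower. DESeq2's Wald test called 9 members higher and 9 lower. The replicate numbers of the labels matched only as numbers. The deviations of same-numbered libraries correlated at 0.169, and the replicate block changed no call among the 39 members, with 9 higher and 9 lower. Of the genes named here, with GC correction the called falls of Herc6 (0.14, and 0.15 with the block), Ifi209 (0.053 and 0.040), Tlr8 (0.17 and 0.16) and Tlr4 (0.27 and 0.27) changed sign, and Ifi205 (0.84 and 0.82) was called against its former sign. Among members not called in either fit, Ifi207 (0.18), Ifih1 (0.36) and Parp14 (0.20) changed sign as well. The cause of these changes was not tested. With 2 libraries per group, a call rests on the spread shared over genes, and low genes such as Ifnb1 stay imprecise.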
